A study of Mus musculus with 2 samples.

Results

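The absorptive cells of the gut carry a brush border, a dense carpet of microvilli on the face that meets the lumen. The following 10 genes of this surface were described: *Guca2a*, *Guca2b*, *Ceacam1*, *Ceacam20*, *Vil1*, *Cdhr2*, *Cdhr5*, *Myo1a*, *Espn* and *Mep1a*. They were taken by gene symbol, and all were found among the 40879 gene symbols of the files. RNA of mouse intestine was compared between ERAP1 wild-type (WT) and heterozygous (ERAP1+/-) mice, with 1 library per genotype. Per the methods, each library came from RNA pooled from 3 mice, the mice were 8 weeks old and on the C57BL/6 background, and no treatment is named for these samples. The ERAP1+/- mice came from a line with a tm1a allele, crossed with a strain expressing Cre recombinase that is not named, so that a pair of *Erap1* exons was deleted on the mutant copy. The methods call the mice germ-free and also place them in a specific pathogen-free facility.

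Each microvillus holds a core of actin filaments. Villin (*Vil1*) and espin (*Espn*) cross-link the filaments, and the motor myosin 1a (*Myo1a*) ties the core to the membrane. Neighboring microvilli are joined at their tips by the protocadherins Cdhr2 and Cdhr5. The membrane carries enzymes such as the protease meprin alpha (*Mep1a*) and adhesion proteins of the Ceacam family. In the colon, cells move from the crypt base to the surface as they mature, and the surface cells release guanylin (*Guca2a*) and uroguanylin (*Guca2b*), peptides that act through the receptor guanylate cyclase C (*Gucy2c*) to control salt and water transport.

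The WT library held 8114826 reads counted on genes and the ERAP1+/- library 8907515. Levels are CPM, reads scaled to the same library size after correction by TMM (trimmed mean of M values), and differences between genotypes are those of log2(CPM + 1), ERAP1+/- minus WT. A gene was called where this difference passed 2-fold and its log2(CPM + 1) was at least 4 in 1 or both libraries. Intervals are exact 95% intervals of the ratio of levels and cover counting error only. With 1 library per genotype, no difference has a replicate check and no p-value is given. *Erap1* had 229 reads in WT and 2 in the library labelled ERAP1+/-, although heterozygous mice keep an intact copy of the gene. The kit reads 3′ ends, so transcripts of an intact copy would be counted, and 2 reads are fewer than the label would lead one to expect. The cause of this low count was not tested. The library is called here by its label. The libraries differed in other ways as well. The 14 skin genes listed held 27630 reads in WT and 387 in ERAP1+/-, and 14 skeletal muscle genes held 10829 and 229, while *Xist*, which marks female cells, had 1635 and 6451 reads and the Y-linked *Ddx3y* had 319 and 29. The part of tissue makeup and sex in the results was not tested, and neither can be told apart from genotype with 1 library each.

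The tissue label was checked against enzymes that mark the small intestine. *Sis*, *Akp3* and *Tmprss15* had no read in either library, *Lct* had 5 and 1 and *Alpi* had 2 and 4. A count of 0 allows up to 3 reads, which is 0.386 CPM in WT and 0.322 CPM in ERAP1+/-. Genes of the colon surface were abundant in both libraries, with 13814 and 9366 reads of *Car1*, a carbonic anhydrase, and 5360 and 5329 reads of *Aqp8*, a water channel. Both libraries thus carried these genes of colon and few or no reads of those 5 enzymes, while other brush border hydrolases, such as *Mgam* (1335 and 1332 reads) and *Anpep* (117 and 115), were detected.

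Both peptide hormone genes were higher in the ERAP1+/- library, the protocadherins, *Mep1a*, *Ceacam20*, *Myo1a*, *Vil1* and *Ceacam1* were lower, and *Espn* had an interval that included 1. *Guca2b* was called higher and *Ceacam20* was called lower, so that 2 of 10 genes were called, 1 in each direction. Among the 8013 genes past the level, 5.34% were called, 1.39% higher and 3.96% lower. The counting interval excluded 1 for 9 of the 10 genes, above 1 for 2 and below 1 for 7, beside 57.9% of all genes past the level, 25.5% above and 32.4% below. The median difference over the 10 genes was -0.37 on the log2(CPM + 1) scale, and the median over all genes past the level was -0.03. In bulk tissue, fewer cells of a type and less RNA per cell cannot be told apart.

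**Figure D1:**
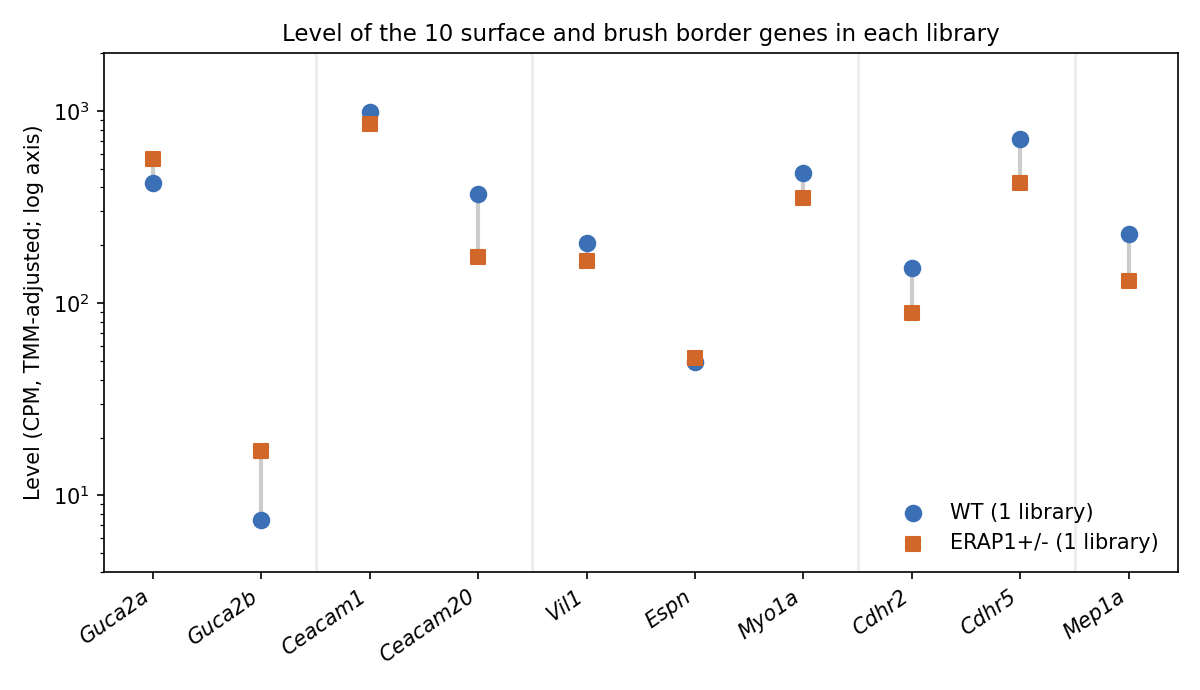
Level of each of the 10 genes (vertical log axis, TMM-adjusted CPM) in the WT library (circle) and the ERAP1+/- library (square), grouped by role with 1 library per genotype and no error bar. Both guanylin genes sit higher in the ERAP1+/- library, *Espn* nearly coincides, and the other 7 genes sit lower, of which *Ceacam1* changes side when scaled to epithelial genes or *Vil1*.

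*Guca2a* (ENSMUSG00000023247.2) lies on the plus strand of chromosome 4 of GRCm38 from 119637704 to 119639471, and *Guca2b* (ENSMUSG00000032978.14) on the minus strand from 119656607 to 119658954. The genes face each other across 17136 bases. *Guca2a*, the main guanylate cyclase C ligand of the colon, had 3280 reads (422.1 CPM) in WT and 5221 (561.3 CPM) in ERAP1+/-. Its level was 1.33 times as high in the ERAP1+/- library (95% interval 1.27 to 1.39), a log2 difference of 0.41 that was not called. Among the genes past the level, 88.3% had a lower difference.

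*Guca2b*, which encodes uroguanylin and is known mainly from the small intestine and kidney, had 58 reads (7.46 CPM) and 159 reads (17.1 CPM). The ratio was 2.29 (95% interval 1.69 to 3.15), a log2 difference of 1.10, and 99% of genes had a lower one. The gene was past the level through the ERAP1+/- library alone, with log2(CPM + 1) of 3.08 in WT and 4.18 in ERAP1+/-. Set against each other within a library, which needs no scaling, *Guca2b* gave 0.0177 reads per *Guca2a* read in WT and 0.0305 in ERAP1+/-, a ratio of 1.72 (95% interval 1.26 to 2.38). The neighbors thus both stood higher, *Guca2b* by more than *Guca2a* beyond counting error.

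The promoters of these 2 genes and of the 3 genes with the lowest ratios among the other roles are shown because they stand at the ends of the range. They are RefSeq sequences of GRCm38.p6, from 250 bases before to 50 bases after the start site, written 5′ to 3′ on the strand of the gene, at chr4:119637482-119637781 (plus strand) for *Guca2a*, chr4:119658896-119659195 (minus) for *Guca2b*, chr7:19965162-19965461 (plus) for *Ceacam20*, chr17:43502724-43503023 (minus) for *Mep1a* and chr13:54701213-54701512 (plus) for *Cdhr2*. Capitals mark matches, on either strand, to short motifs of factors of the gut epithelium.
Guca2a: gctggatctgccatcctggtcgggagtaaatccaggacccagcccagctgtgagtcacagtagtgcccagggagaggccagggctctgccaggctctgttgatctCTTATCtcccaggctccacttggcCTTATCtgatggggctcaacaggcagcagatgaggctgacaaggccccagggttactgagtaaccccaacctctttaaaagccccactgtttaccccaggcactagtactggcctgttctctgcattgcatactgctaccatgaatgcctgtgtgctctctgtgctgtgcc
Guca2b: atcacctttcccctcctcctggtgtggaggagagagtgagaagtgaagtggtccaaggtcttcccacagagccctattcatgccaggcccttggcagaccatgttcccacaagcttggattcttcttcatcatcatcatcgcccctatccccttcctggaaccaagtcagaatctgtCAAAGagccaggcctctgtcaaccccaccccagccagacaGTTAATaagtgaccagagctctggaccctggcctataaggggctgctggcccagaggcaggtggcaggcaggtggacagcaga
Ceacam20: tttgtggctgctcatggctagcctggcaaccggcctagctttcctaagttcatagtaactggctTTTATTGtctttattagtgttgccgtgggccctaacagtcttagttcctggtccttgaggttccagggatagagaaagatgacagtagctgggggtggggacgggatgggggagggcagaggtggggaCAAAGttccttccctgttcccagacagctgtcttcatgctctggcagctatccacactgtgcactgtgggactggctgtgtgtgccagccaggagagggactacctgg
Mep1a: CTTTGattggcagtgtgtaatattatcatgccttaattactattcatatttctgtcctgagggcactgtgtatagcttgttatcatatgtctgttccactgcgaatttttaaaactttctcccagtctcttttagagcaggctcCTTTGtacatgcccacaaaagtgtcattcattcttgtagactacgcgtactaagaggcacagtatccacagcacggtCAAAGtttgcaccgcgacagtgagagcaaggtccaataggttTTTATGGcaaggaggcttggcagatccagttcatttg
Cdhr2: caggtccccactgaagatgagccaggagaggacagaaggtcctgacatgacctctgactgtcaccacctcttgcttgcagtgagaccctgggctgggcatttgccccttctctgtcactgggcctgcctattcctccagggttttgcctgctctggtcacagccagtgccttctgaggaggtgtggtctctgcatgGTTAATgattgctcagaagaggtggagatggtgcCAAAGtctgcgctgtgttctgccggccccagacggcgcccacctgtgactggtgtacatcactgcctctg

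The motifs were CAAAG for HNF4, GTTAAT for HNF1, TTTATNG for CDX and GATAAG for GATA factors, and they were chosen after the sequences were seen. All 10 genes matched the promoter table, *Espn* with more than 1 start site. A gene was counted if any of its start sites matched, whereas the percentages are of single promoters. *Espn* was counted through 1 of its start sites. CAAAG was found for 7 of the 10 genes, and 53.9% of all 32851 promoters of this length hold it. It lay 58 bases upstream of the start site of *Ceacam20* and 20 bases upstream of that of *Cdhr2*, while *Guca2a*, *Cdhr5* and *Myo1a* had no match. GTTAAT (7.1% of promoters) was found for *Guca2b* and *Cdhr2*, TTTATNG (10.9%) for *Ceacam20*, *Espn* and *Mep1a*, and GATAAG (7.44%) for *Guca2a*, where 2 matches lay 145 and 121 bases upstream. These matches describe letters only, and CAAAG stood before genes that were higher as well as genes that were lower.

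The rest of the guanylin pathway was mixed. Of 13 genes listed, *Cftr* was called higher and none was called lower, with a median difference of -0.12 that became 0.00 with scaling by the total count and 0.12 with scaling to a list of epithelial genes. *Gucy2c*, the receptor, stood at 681 and 1078 reads, and its ratio was 1.32 (95% interval 1.20 to 1.46). Per *Gucy2c* read, WT held 4.82 *Guca2a* reads and the ERAP1+/- library 4.84, and the ratio of the 2 was 1.01 (95% interval 0.904 to 1.12). The proportion of ligand to receptor thus did not differ beyond counting error.

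*Cftr*, the chloride channel opened downstream of the receptor, stood at 352 and 978 reads, with its ratio at 2.32 (95% interval 2.05 to 2.63). *Slc9a3*, the sodium-hydrogen exchanger that the pathway inhibits, had 7 and 60 reads, a log2 difference of 1.97, and stayed under the level in both libraries. The lowest difference among genes with at least 100 reads was that of *Nherf1* (923 and 681 reads, -0.69), a scaffold of microvillar transporters.

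Goblet cell genes were higher beside the hormone genes. All 12 goblet genes listed were higher in the ERAP1+/- library, with a median difference of 0.90, from 0.24 for *Tff3* to 1.40 for *Ccl6*. Of the 10 past the level, 4 were called higher: *Muc2*, *Atoh1*, *Sytl2* and *Ccl6*. *Atoh1* was past the level through the ERAP1+/- library alone, with log2(CPM + 1) of 3.75 in WT and 5.10 in ERAP1+/-. Among all genes past the level, 1.39% were called higher. *Muc2*, the main mucin of the colon, had 12020 and 32939 reads. Their summed level was 9030 CPM in WT and 14870 CPM in ERAP1+/-. The part of goblet cells in the guanylin values was not tested.

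*Ceacam20* (ENSMUSG00000070777.5, chromosome 7, 19965412 to 19991104, plus strand) encodes an adhesion protein of microvilli that is a substrate of the phosphatase Ptprh. It had 2859 reads (367.9 CPM) in WT and 1621 (174.3 CPM) in ERAP1+/-. This was the lowest ratio of the 10 genes, 2.11-fold lower in ERAP1+/- (95% interval 1.99 to 2.25), with a log2 difference of -1.07. The call rested on the scaling: the difference was -0.95 with scaling by the total count and -0.84 with scaling to the epithelial list, both short of 2-fold. *Ptprh* had 629 and 385 reads, a log2 difference of -0.95. Per *Ptprh* read, *Ceacam20* had 4.55 reads in WT and 4.21 in ERAP1+/-, and the ratio of 0.926 had an interval that included 1 (0.803 to 1.07).

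*Ceacam1* (ENSMUSG00000074272.10, chromosome 7, 25461707 to 25477603, minus strand) encodes a cell adhesion receptor of epithelia, endothelium and leukocytes. It had 7664 reads (986.3 CPM) and 7911 reads (850.4 CPM), 1.16-fold lower in the ERAP1+/- library (95% interval 1.12 to 1.20). Its log2 difference of -0.21 turned to 0.02 with scaling to the epithelial list and to 0.10 with scaling to *Vil1*. Of the 75-base stretches in the last 500 bases of its coding transcripts, 37.6% also occur in *Ceacam2*, so that the 2 genes can share reads. The gene *4732471J01Rik* overlaps it on the other strand, with 196 and 135 reads.

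The pair of Ceacam genes differed from each other. *Ceacam20* gave 0.373 reads per *Ceacam1* read in WT and 0.205 in ERAP1+/-, 1.82-fold lower (95% interval 1.70 to 1.95). Of the 13 other Ceacam genes in the files, 4 had at least 10 reads over the libraries. *Ceacam10*, a secreted member, was called higher with 125 and 334 reads and a ratio of 2.23 (95% interval 1.81 to 2.76). *Ceacam18* had 70 and 68 reads, *Ceacam2* had 13 and 13, and *Ceacam12* had 0 and 14. The family therefore held members on both sides, and *Ceacam20* was the only one called lower.

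**Figure D2:**
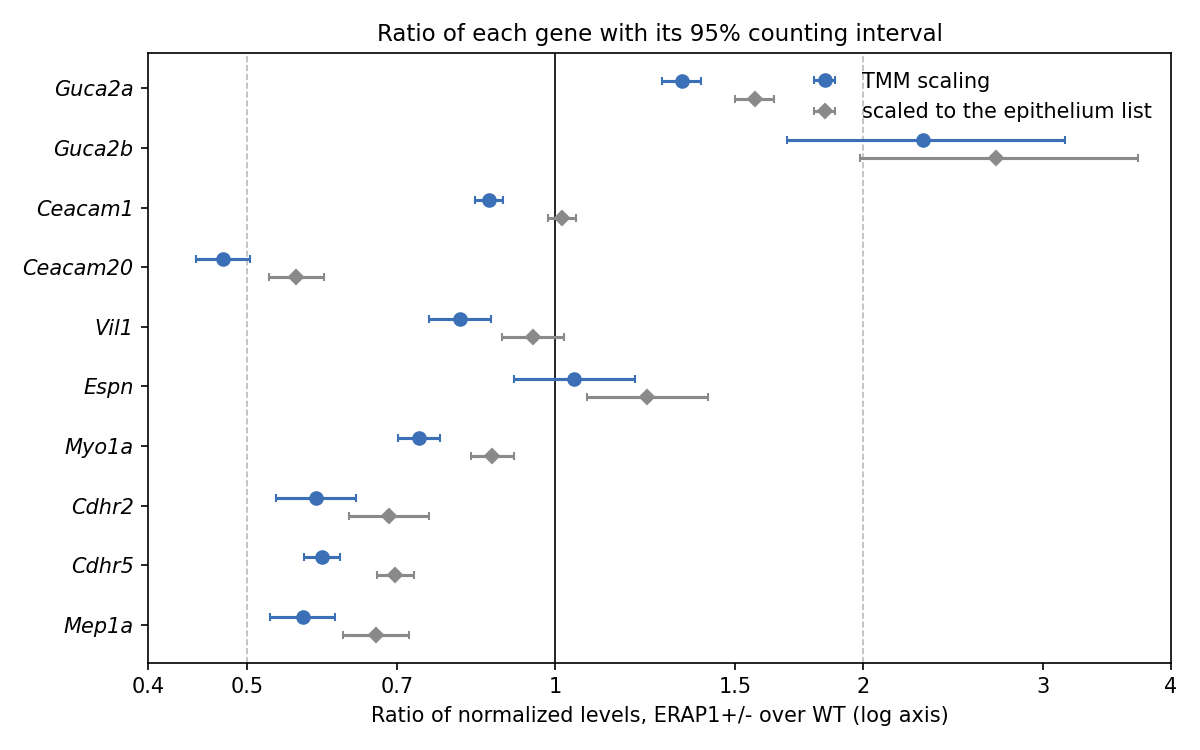
Ratio of the level in the ERAP1+/- library to that in the WT library for each gene (horizontal log axis) with its 95% counting interval, under TMM scaling (circles) and with both libraries scaled to the epithelial list (diamonds); dashed lines mark 2-fold. Under both scalings *Guca2a* and *Guca2b* lie above 1 and *Ceacam20*, *Cdhr2*, *Cdhr5* and *Mep1a* lie below it, whereas *Ceacam1* moves from 0.862 to 1.02.

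The genes of the actin core differed less. *Vil1* (ENSMUSG00000026175.12, chromosome 1, 74409376 to 74435559, plus strand) had 1597 reads (205.5 CPM) and 1543 reads (165.9 CPM). Its log2 difference was -0.31, 1.24-fold lower in ERAP1+/- (95% interval 1.16 to 1.33), and near that of the epithelial genes listed, whose median was -0.24. *Usp37* overlaps it on the other strand and had 129 and 131 reads.

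*Espn* (ENSMUSG00000028943.18, chromosome 4, 152120331 to 152152371, minus strand) had 385 reads (49.6 CPM) and 481 reads (51.7 CPM). Its ratio of 1.04 was the only one of the 10 whose interval included 1 (0.911 to 1.20). *Myo1a* (ENSMUSG00000025401.9, chromosome 10, 127705170 to 127720940, plus strand) had 3697 reads (475.8 CPM) and 3260 reads (350.4 CPM), with a log2 difference of -0.44. It was 1.36-fold lower in ERAP1+/- (95% interval 1.30 to 1.42). *Myo1a* gave 9.60 reads per *Espn* read in WT and 6.78 in ERAP1+/-, 1.42-fold lower (95% interval 1.23 to 1.64), so the 2 core genes were not in the same proportion in the libraries.

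Relatives of the core proteins did not share a direction. Of the villin and gelsolin family, the highest difference was that of *Scin* (0.99, 155 and 377 reads), a calcium-dependent severing protein, and the lowest that of *Capg* (-0.80, 169 and 112 reads). *Gsn* (10335 and 10542 reads), *Svil* (580 and 553), *Flii* (829 and 719), *Vill* (36 and 24) and *Avil* (17 and 32), a tuft cell gene, lay between them, and no gene of the family was called. Among class I myosins, *Myo1e* had 673 and 431 reads and a log2 difference of -0.89, *Myo1d* had 1599 and 1455, and *Myo1c* had 342 and 337. *Myo1g* (21 and 13 reads) and *Myo1f* (6 and 11) are genes of leukocytes. *Espnl*, the other espin, had no read in either library.

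The protocadherins of the microvillar tips were lower by nearly the same amount. *Cdhr2* (ENSMUSG00000034918.8, chromosome 13, 54701461 to 54736662, plus strand) had 1178 reads (151.6 CPM) in WT and 823 (88.5 CPM) in ERAP1+/-. *Cdhr5* (ENSMUSG00000025497.15, chromosome 7, 141269083 to 141276786, minus strand) had 5526 reads (711.2 CPM) and 3915 reads (420.9 CPM). Their log2 differences were -0.77 and -0.76, or 1.71-fold (95% interval 1.57 to 1.88) and 1.69-fold lower (1.62 to 1.76), short of a call. The WT library held 4.69 *Cdhr5* reads per *Cdhr2* read and the ERAP1+/- library 4.76, a ratio of 1.01 (95% interval 0.918 to 1.12). The proportion of the partners thus did not differ beyond counting error. *Cdhr2* shares chromosome 13 with *Erap1*, which starts 19902906 bases after its end, and *Cdhr5* does not. Of the other Cdhr genes only *Cdhr1* reached 10 reads, with 16 and 7.

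Cdhr2 and Cdhr5 are held to the actin core by a complex of Ush1c, Anks4b, Myo7b and Calml4. *Ush1c* had 1120 and 973 reads, a log2 difference of -0.46. *Anks4b* had 602 and 472 reads (-0.60), and *Myo7b* had 618 and 556 (-0.41). *Calml4*, the light chain of the complex, stood on the other side with 827 and 1107 reads and a difference of 0.16. None of the 4 was called.

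**Figure D3:**
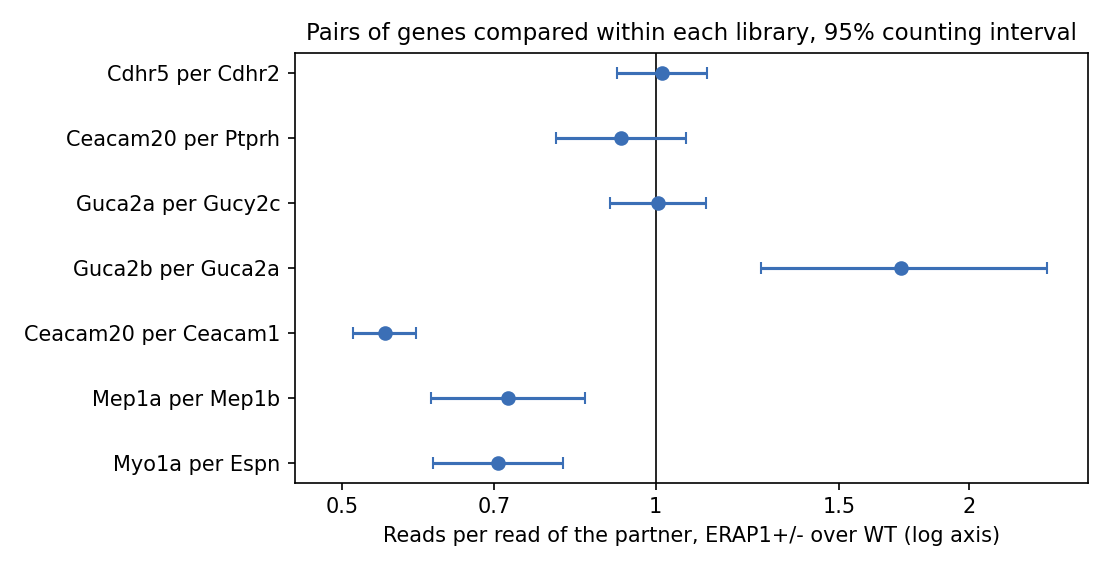
Pairs of genes compared within each library: reads of the first gene per read of the second, as a ratio of the ERAP1+/- library to the WT library (horizontal log axis) with its 95% counting interval. The intervals of *Cdhr5* per *Cdhr2*, *Ceacam20* per *Ptprh* and *Guca2a* per *Gucy2c* include 1, and those of the other 4 pairs do not.

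*Mep1a* (ENSMUSG00000023914.16, chromosome 17, 43474324 to 43502812, minus strand) had 1780 reads (229.1 CPM) and 1207 reads (129.8 CPM). It was 1.76-fold lower in the ERAP1+/- library (95% interval 1.64 to 1.90), a log2 difference of -0.82 that was not called. *Mep1b*, which encodes the beta subunit of meprin, had 351 and 330 reads and a difference of -0.34, the lowest among the other hydrolases with at least 100 reads. *Mep1a* gave 5.07 reads per *Mep1b* read in WT and 3.66 in ERAP1+/-, 1.39-fold lower (95% interval 1.17 to 1.64). The subunits therefore did not keep their proportion.

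The other brush border hydrolases did not stand as low as *Mep1a*. Of 24 listed, 14 had at least 10 reads, with a median difference of -0.06, and none of the 5 past the level was called. The median turned to 0.02 with scaling by the total count and to 0.09 with scaling to the epithelial list. Over the fewer hydrolases with at least 100 reads it was -0.26, near the median of the epithelial genes listed (-0.24). The highest difference was that of *Dpp4* (0.79, 98 and 209 reads), a peptidase of the membrane. *Mep1a* thus lay below all 14 of them.

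**Figure D4:**
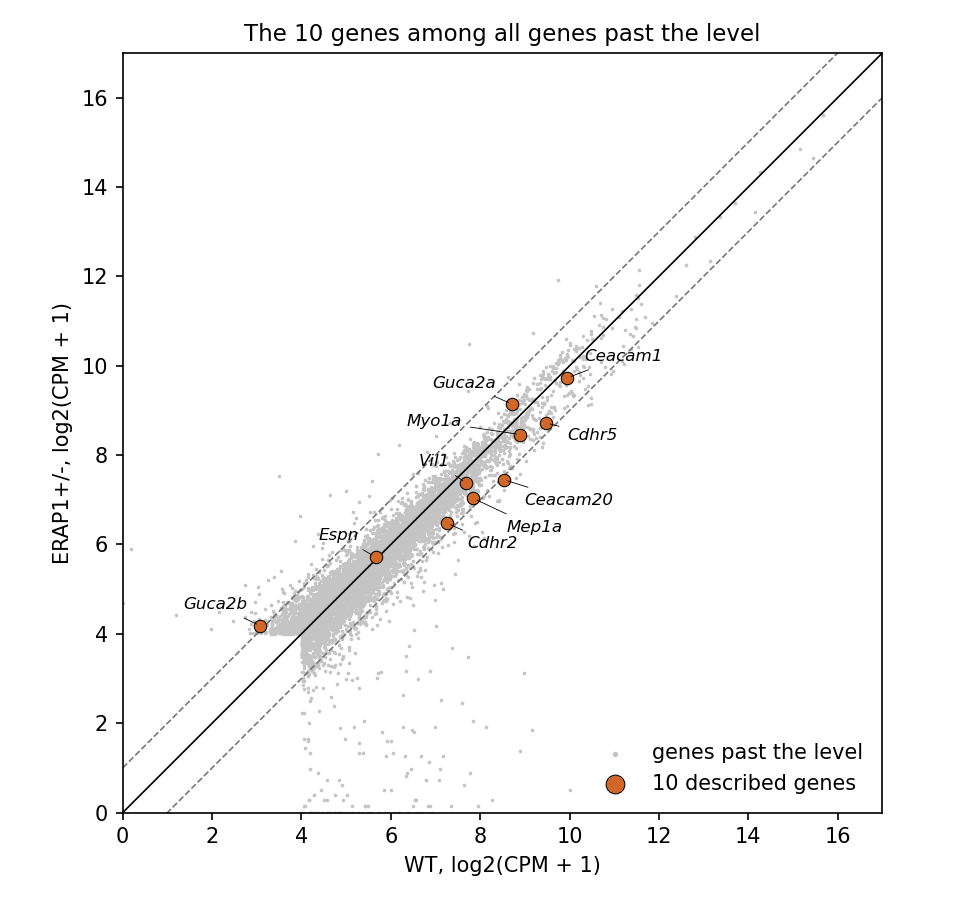
Level in the ERAP1+/- library against level in the WT library, both as log2(CPM + 1), for the 8013 genes past the level (grey) and the 10 genes described (orange); the solid line marks equality and the dashed lines 2-fold. *Guca2b* lies above the upper dashed line and *Ceacam20* below the lower one.

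Beyond the 10 genes, 34 other genes of brush border structure were listed, from cross-linkers and scaffolds to keratins. Of the 33 with at least 10 reads, 28 were lower and 5 higher in the ERAP1+/- library, with a median of -0.37, the same to 2 decimals as that of the 10 genes. One of the 29 past the level was called, *Krt20*, the keratin of mature surface cells, with 5156 and 2674 reads and a difference of -1.20. *Eps8*, a capping protein of filament tips, had 1509 and 1024 reads (-0.81), and *Ezr*, which encodes the membrane linker ezrin, had 6260 and 4937 (-0.60). The highest differences were those of *Tmigd1* (1.06, 30 and 85 reads), which stayed under the level, and *Baiap2l2* (0.69, 100 and 199 reads). Scaled to the epithelial list, the median of the structure list was -0.13.

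Genes of the mature colon surface leaned lower, with members on both sides. Of 32 listed, 21 were lower and 11 higher, with a median of -0.55, and 5 were called lower. *Car4*, a carbonic anhydrase of the apical membrane, had 15163 and 8391 reads (-1.11), and the lowest difference past the level was that of *Clca4a* (-1.58, 820 and 322 reads). *Ly6g* (-1.32), *Emp1* (-1.35) and *Krt20* were the other genes called lower. *Slc5a8*, a short-chain fatty acid transporter, had 755 and 1806 reads and a difference of 0.99.

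Genes of the crypt base and of dividing cells lay on the opposite side. Of 19 with at least 10 reads, 16 were higher and 3 lower in the ERAP1+/- library, with a median difference of 0.50. *Cdk1*, a kinase of the cell cycle, was called higher with 184 and 494 reads (1.13), and no gene was called lower. *Ephb3* had the lowest difference (-0.20, 475 and 495 reads). *Lgr5*, the marker of crypt stem cells, had 28 and 52 reads, and the interval of its ratio (0.962 to 2.55) included 1.

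**Figure D5:**
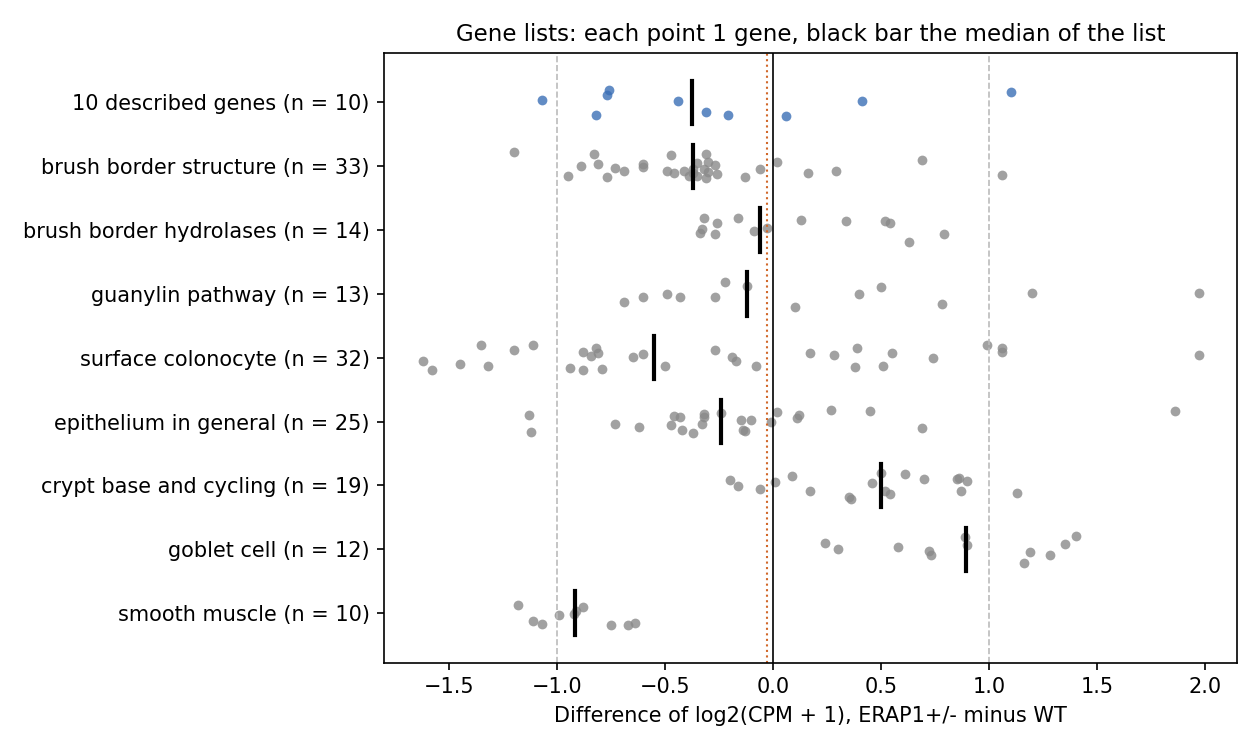
Difference of log2(CPM + 1), ERAP1+/- minus WT, for each gene (points) of the 10 described and of 8 gene lists, with the median of each list as a black bar; dashed lines mark 2-fold and the dotted line the median of all genes past the level, and vertical scatter within a row has no meaning. The medians run from -0.91 for smooth muscle and -0.55 for surface colonocytes to 0.50 for crypt base and cycling and 0.90 for goblet cells.

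The 25 genes of epithelium in general had a median difference of -0.24, with 18 lower and 7 higher. *Cldn15* was called higher (1.86, 83 and 384 reads) and was past the level through the ERAP1+/- library alone. *Lgals3* (-1.12) and *F11r* (-1.13) were called lower. Set against these genes, so that their median ratio was 1, *Guca2a* was 1.57 times as high in the ERAP1+/- library (upper bound 1.64) and *Guca2b* 2.70 times (1.99 to 3.71). On the same scale *Ceacam20* had a ratio of 0.558, *Mep1a* 0.668, *Cdhr2* 0.688, *Cdhr5* 0.698 and *Myo1a* 0.868, and the interval of each lay below 1. *Vil1* (0.951) and *Ceacam1* (1.02) had intervals that included 1, and *Espn* had a ratio of 1.23 (95% interval 1.07 to 1.41). These intervals take the median of the epithelial genes as exact, although those genes ran from -1.13 to 1.86. The error of this reference is left out. The order of the 10 genes is the same under any scaling of the libraries.

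*Vil1* itself can serve as the reference. Per *Vil1* read, *Ceacam20* was 1.70-fold lower in ERAP1+/- (95% interval 1.55 to 1.87), *Mep1a* 1.43-fold (1.29 to 1.58), *Cdhr2* 1.38-fold (1.23 to 1.55), *Cdhr5* 1.36-fold (1.26 to 1.48) and *Myo1a* 1.10-fold (1.01 to 1.19). *Guca2a* was 1.65 times as high (1.52 to 1.79), *Guca2b* 2.84 times (2.07 to 3.93) and *Espn* 1.29 times (1.11 to 1.51). *Ceacam1* gave 4.80 and 5.13 reads per *Vil1* read, and the interval of its ratio (0.989 to 1.15) included 1. This comparison and the other pairs within a library were chosen after the values were seen.

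Markers of other cell types differed as well. All 10 smooth muscle genes were lower in ERAP1+/-, with a median of -0.91 and a summed level of 11570 and 5921 CPM, and *Mylk*, *Myh11* and *Tagln* were called. All 13 skin genes and all 13 skeletal muscle genes past the level were called lower, and they passed it through the WT library alone. Of 10 leukocyte genes with enough reads, 7 were higher and 3 lower. *S100a8* and *S100a9*, genes of neutrophils, were called higher with 49 and 165 and with 52 and 171 reads. Both were past the level through the ERAP1+/- library alone. *Itgam* had the lowest difference of the list (-0.73, 142 and 99 reads) and was not called. The 8 endothelial genes had a median of 0.07, and 5 tuft cell genes one of 0.68. The part of these cells in the values of the 10 genes was not tested.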

How the data were processed

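Total RNA of mouse intestine, pooled from 3 mice per genotype, was sequenced with the QuantSeq 3′ mRNA-Seq kit as single-end reads of 75 bases. The authors deposited raw counts per gene symbol, 1 table per library. The methods name STAR with HTSeq-count in one place and Bowtie2 with RSEM in another, the latter pair also listed in the submitters' processing notes with GRCm38; which made the counts is not stated. Reads from 3′ ends were not divided by gene length, and levels were compared between libraries, not between genes.

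TMM factors (0.958 for WT, 1.04 for ERAP1+/-) came from edgeR 4.0.16 in R 4.3.3, with a pseudocount of 1 for log2 values. Quasi-likelihood tests could not be fitted with 1 library per group. Ratios were given exact intervals conditional on the summed reads (binomial, scipy 1.17.1), and pairs within a library conditional odds ratios. Listed genes needed at least 10 reads over both libraries. *Nherf1* and *Nherf2* were matched through RefSeq synonyms. Named were the 10 genes, their relatives with at least 10 reads, the genes called in each list, and the highest and lowest difference of the 6 main lists among genes with at least 100 reads; a few partners were added after their values were seen. Some genes that this rule names are not reported here. The genes and lists were chosen with earlier results of these data known. Some lists share genes, such as *Krt20*. Coordinates are those of GENCODE M21. The steps that give calls and intervals were run on simulated data, and the outcome is not given here. Variation between mice or between pools was not tested. Alternatives were DESeq2 1.42.0 size factors, other scalings, filters, thresholds and a pseudocount of 0.1.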

Additional observations from a re-analysis of the deposited data

How the results depend on the processing

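No paired analysis was possible because there was 1 library for WT and 1 for ERAP1+/-, and for the same reason no library could be left out. Of 60 summary values recomputed, 4 medians changed sign and 16 values moved without a change of sign. The other 40 stayed within 0.1 with the same sign (medians) or within 1.5 times (counts). These 40 include every value with DESeq2 size factors, with TMM computed without skin and skeletal muscle genes, and with a pseudocount of 0.1. They also include every value without features whose symbols carry a mitochondrial or ribosomal RNA prefix. That filter kept *CYTB* (104182 and 119083 reads) and *COX1* (20561 and 22851), mitochondrial genes named without the prefix. The number of the 10 genes called was 2, and it was 1 (*Guca2b*) with scaling by the total count, to the epithelial list or to *Vil1*, 0 with a threshold of 4-fold, and 9 where the counting interval had to exclude 1. Scaling by the total count, which raised the median of all genes by 0.122, gave medians of -0.25 for the 10 genes, -0.24 for brush border structure, 0.02 for hydrolases, 0.00 for the guanylin pathway, -0.42 for surface colonocytes, 0.62 for crypt base and cycling and -0.11 for epithelium in general. Scaling to the epithelial list raised it by 0.232 and gave -0.14, -0.13, 0.09, 0.12, -0.31 and 0.71 for the same lists in order. Scaling to *Vil1*, chosen after seeing the data, raised it by 0.303 and gave -0.07 for the 10 genes. With at least 100 reads per gene, the median of the hydrolases was -0.26, over fewer genes. *Guca2b* rests on 58 WT reads, the fewest of the 10 genes. Among the 10 genes the direction changed for *Ceacam1* alone, with scaling to the epithelial list or to *Vil1*.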

Other observations

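*Guca2a* and *Guca2b* were also set against the goblet cell gene *Muc2*, and *Ceacam20* against the surface gene *Krt20*, within a library. *Guca2b* gave 0.00483 reads per *Muc2* read in both libraries, and the ratio of the libraries was 1.00 (95% interval 0.736 to 1.38). *Guca2a* gave 0.273 reads per *Muc2* read in WT and 0.158 in ERAP1+/-, 1.72-fold lower (95% interval 1.64 to 1.81). *Ceacam20* gave 0.555 and 0.606 reads per *Krt20* read, a ratio of 1.09 (95% interval 1.01 to 1.18). These pairs were chosen after the values were seen.

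*Slc9a3* had the largest ratio in the guanylin and surface lists, 7.16 (95% interval 3.27 to 18.6), on 7 and 60 reads. *Clca4b*, a neighbor in kind of *Clca4a*, had 57 and 16 reads and was 4.26-fold lower (95% interval 2.42 to 7.96), under the level in both libraries. *Ace*, a peptidase of the brush border, stood at 46 and 90 reads, with its ratio at 1.63 (95% interval 1.13 to 2.38).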
